A study of Mus musculus with 6 samples.

Results

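The interferon-gamma-induced GTPases described here were 10 mouse genes, which are Gbp2, Gbp3, Gbp4, Gbp5, Gbp6, and Gbp7 of the guanylate-binding protein family and Igtp, Irgm1, Iigp1, and Tgtp2 of the immunity-related GTPase family. They were taken by gene symbol from the single-cell count matrices of 6 kidneys, and all 10 were found among the 28208 genes that the matrices shared. The naive group (n = 2) consisted of untransplanted kidneys of male C57BL/6 (B6) mice aged 10 to 12 weeks. The rejecting group (n = 2) consisted of BALB/c kidneys that had been placed in male B6 recipients whose own kidneys had both been removed, with an age given as 6 to 7 weeks and tissue taken on day 15 after transplantation. The tolerized group (n = 2) was transplanted and collected likewise, and its recipients had also received intravenous infusions of BALB/c splenocytes treated with ethylenecarbodiimide (ECDI) before and after transplantation. A graft therefore held BALB/c parenchyma together with cells of the B6 recipient. Naive kidneys differed from grafts in strain, age, transplantation, matrix version, and gene list at once, and these cannot be told apart in any comparison with naive kidneys.

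Interferon-gamma is secreted mainly by activated T cells and NK cells. It binds a receptor made of the chains encoded by Ifngr1 and Ifngr2, which signals through the kinases Jak1 and Jak2. Gamma-activated sequences (GAS) and interferon-stimulated response elements (ISRE), the latter bound by the induced factor Irf1, mark promoters of the response, and the GTPases are among the most strongly induced genes of the response. Guanylate-binding proteins and immunity-related GTPases are known to coat the vacuoles of intracellular pathogens, and some of them promote caspase-11 and inflammasome activation. Igtp and Irgm1 belong to the regulatory immunity-related GTPases of the GMS type, whereas Iigp1 and Tgtp2 are effectors of the GKS type that are loaded on vacuoles.

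The members lie in gene clusters of the GRCm38 build. In GENCODE release M21, Gbp5, Gbp7, Gbp3, and Gbp2 follow one another on the plus strand of chromosome 3, from chr3:142493978-142522344 for Gbp5 to chr3:142620602-142638008 for Gbp2. Gbp4 (chr5:105115767-105139586) and Gbp6 (chr5:105270702-105293698) lie on the minus strand of chromosome 5. Irgm1 (chr11:48861968-48871683, minus), Tgtp2 (chr11:49057194-49064206, minus), and Igtp (chr11:58199556-58207591, plus) lie on chromosome 11. The annotation of Gbp4 overlaps Gbp8 and Gbp9 on the same strand, that of Igtp overlaps Irgm2, that of Gbp7 overlaps Gm43802, and that of Gbp6 overlaps Gm43302. Tgtp2 has a near-identical copy, Tgtp1. Counts of these 5 members are therefore uncertain to the extent that reads were shared with, or lost to, such neighbors.

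The sequences below show where ISRE-like and GAS-like letters stand upstream of the members, since these are the elements named above. RefSeq promoters on GRCm38.p6, from 250 bases before to 50 bases after a start site, were matched for 7 of the 10 members, with 2 start sites for Gbp3, and Gbp4, Gbp6, and Iigp1 had no entry. The ISRE-like letters searched were GAAA, any 2 letters, and GAAA again, on either strand. The GAS-like letters were TTCNNNGAA, which reads the same on both strands. ISRE-like letters were found in 7 of the 7 members and 7 of their 8 promoters, and in 3.44% of all 32851 promoters. GAS-like letters were found in 4 of the 7 members, which are Gbp5, Gbp7, Igtp, and Tgtp2, and in 8.3% of all promoters. Both were found in 0.45% of all promoters. In Gbp3 and Irgm1, 2 ISRE-like matches overlapped each other. Stretches of these promoters are printed 5′ to 3′ along the strand of the gene, with the matched letters in capitals. In GENCODE M21, the stretches of Gbp2 and Irgm1 lie in whole or in part in the first exon of 1 transcript and before the start of another, that of Gbp5 lies in an intron of a longer transcript, and the rest lie before the gene.
Gbp2, chr3:142620593-142620622, plus strand: aactcttttagTTTCACTTTCactgtctta
Gbp3, chr3:142559934-142560025, plus strand: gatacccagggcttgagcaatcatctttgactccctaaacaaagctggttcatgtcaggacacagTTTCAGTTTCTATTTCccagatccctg
Gbp5, chr3:142496764-142496893, plus strand: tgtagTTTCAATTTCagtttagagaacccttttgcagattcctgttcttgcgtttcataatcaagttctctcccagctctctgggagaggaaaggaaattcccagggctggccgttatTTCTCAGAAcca
Gbp7, chr3:142530226-142530335, plus strand: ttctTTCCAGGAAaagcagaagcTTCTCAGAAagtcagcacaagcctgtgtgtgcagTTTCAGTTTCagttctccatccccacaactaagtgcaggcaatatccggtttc
Igtp, chr11:58199446-58199555, plus strand: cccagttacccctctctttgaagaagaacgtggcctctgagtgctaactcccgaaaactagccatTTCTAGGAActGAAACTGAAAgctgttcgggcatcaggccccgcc
Irgm1, chr11:48871431-48871460, minus strand: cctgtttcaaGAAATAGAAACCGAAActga
Tgtp2, chr11:49064213-49064322, minus strand: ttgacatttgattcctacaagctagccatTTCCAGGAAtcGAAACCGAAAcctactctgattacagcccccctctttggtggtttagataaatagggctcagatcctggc

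In Igtp and Tgtp2, the GAS-like letters stood just before the ISRE-like letters, at 45 and 34 bases before the start of Igtp and at 81 and 70 bases before the start of Tgtp2. In Gbp7, GAS-like letters stood at 106 and 87 bases and ISRE-like letters at 53 bases before the start. For Gbp5, GAS-like letters stood at 245 and 52 bases and ISRE-like letters at 165 bases, and the first of these lies before the stretch shown. A match of letters is a description of these windows, and binding was not measured.

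The matrices held 8532 to 13378 barcodes and 34874702 to 96803926 unique molecular identifiers (UMIs) per kidney. After filters and removal of doublets, 45667 cells remained, with 5608 to 10483 cells and a median of 2542 to 7311.5 UMIs per cell in a kidney. Mitochondrial genes took a median of 24.9% and 25.5% of UMIs in naive cells and 5.38% to 13.7% in grafts. The 2 naive libraries shared 111 cell barcodes, and pairs of graft libraries shared 18 to 35. Pairs of a naive and a graft library shared 0 to 4. The cause was not tested, and this difference too cannot be told apart from the others between naive kidneys and grafts. Clusters were named from marker genes, and tubular, endothelial, myeloid, and lymphoid cells stand for tubule-like, endothelium-like, macrophage-, monocyte-, or dendritic cell-like, and T, NK, or B cell-like cells. Naive kidneys held few leukocytes, with 86 and 152 myeloid cells and 70 and 132 lymphoid cells, against 741 to 2355 myeloid and 1325 to 3954 lymphoid cells in grafts. The rejecting kidneys held 114 and 48 endothelial cells. UMIs were summed per kidney and class, and class levels are given as CPM, which are counts scaled to a common total, after TMM normalization. All 10 members passed the filter on low counts in each class. That filter needs enough counts in 2 kidneys only, so that members near 0 in naive kidneys passed through the grafts.

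In tubular cells, the 10 GTPases were low in naive kidneys and higher in both kinds of graft, at levels that differed widely between members. Gbp5 was lowest in grafts, at 14.4 and 16.4 CPM in rejecting and 5.19 and 7.32 CPM in tolerized kidneys. Iigp1 stood at 3.80 and 6.13 CPM in the naive kidneys, 1270 and 1744 CPM in the rejecting kidneys, and 1179 and 1175 CPM in the tolerized kidneys. Gbp4 stood at 0.283 and 0.054 CPM in naive, 171 and 190 CPM in rejecting, and 113 and 134 CPM in tolerized kidneys. Every graft was above both naive kidneys for each of the 10 members, so that these groups did not overlap. The share of all genes without overlap with naive kidneys was not taken in any class, so such counts are descriptive. By edgeR's quasi-likelihood test, all 10 rose in rejecting over naive kidneys at a false discovery rate (FDR) of 0.05, where 18.6% of the 13907 genes tested were called higher. All 10 also rose in tolerized over naive kidneys, where 12.8% of genes were called higher. The median log2 fold change of the members was 7.64 in rejecting and 6.62 in tolerized kidneys, beside 0.01 and 0.02 over all genes tested. P values measure the spread between these kidneys, since the labels name the replicates only as separate samples.

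Among the immunity-related GTPases, Iigp1 was higher in rejecting than naive tubular cells by a log2 fold change of 8.26 ± 0.36 (SE, FDR = 9.7e-06), and by 7.90 ± 0.35 in tolerized kidneys. Igtp, which restrains the effector GTPases, stood at 5.22 and 12.3 CPM in naive, 534 and 481 CPM in rejecting, and 377 and 348 CPM in tolerized kidneys, a rise of 5.87 ± 0.41 in rejecting kidneys. Tgtp2 went from 0.243 and 0.161 CPM to 59.1 and 66.0 CPM in rejecting and 36.5 and 44.8 CPM in tolerized kidneys. Irgm1, which regulates the effectors and autophagy, had the smallest rise of the 10 members, from 6.79 and 15.5 CPM to 144 and 336 CPM in rejecting and 128 and 194 CPM in tolerized kidneys. Its log2 fold change was 4.44 ± 0.53 in rejecting and 3.86 ± 0.52 in tolerized kidneys.

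Among the guanylate-binding proteins, Gbp4 had the highest log2 fold change, 9.91 ± 0.39 in rejecting and 9.37 ± 0.38 in tolerized tubular cells, and its naive level rested on few UMIs. Gbp2 stood at 2.27 and 1.94 CPM in naive, 208 and 196 CPM in rejecting, and 138 and 120 CPM in tolerized kidneys, a rise of 6.58 ± 0.22 in rejecting and 5.93 ± 0.21 in tolerized kidneys. Gbp7, at 3.28 and 4.03 CPM in naive kidneys, reached 186 and 151 CPM in rejecting and 113 and 122 CPM in tolerized kidneys. Both genes thus had replicates that lay near each other. Gbp3 and Gbp6 rose by 7.77 ± 0.37 and 7.58 ± 0.41 in rejecting kidneys. Gbp5, a guanylate-binding protein known to promote inflammasome assembly, had 3 naive UMIs in all, and its rejecting level was 280.0 times the naive level (95% counting interval 95.3 to 1361.8).

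**Figure D1:**
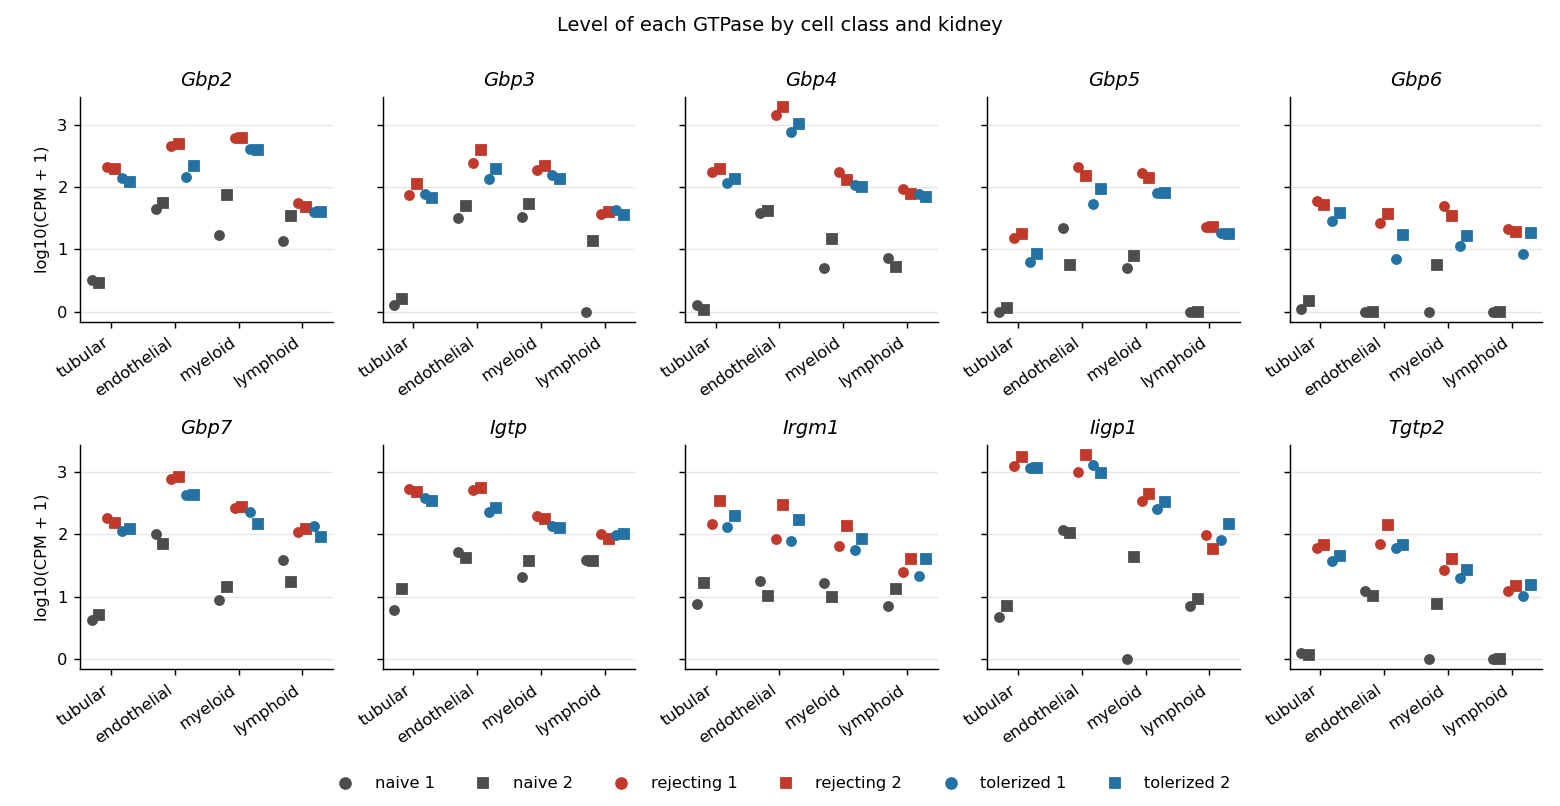
Level of each GTPase by class of cells, as log10 of TMM-scaled CPM plus 1, with 1 point per kidney for the naive, rejecting, and tolerized groups (n = 2 each). In tubular cells, every graft lies above both naive kidneys for all 10 genes, with Iigp1 at 1175 to 1744 CPM in grafts and 3.80 and 6.13 CPM in naive kidneys.

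The same 10 genes rose in endothelial cells, from a higher naive level. Gbp4 stood at 37.8 and 39.7 CPM in naive endothelial cells, 1431 and 1883 CPM in rejecting kidneys, and 762 and 1005 CPM in tolerized kidneys. Its log2 fold changes over naive kidneys were 5.41 ± 0.32 and 4.51 ± 0.31. Iigp1 stood at 116 and 106 CPM in naive, 1012 and 1858 CPM in rejecting, and 1276 and 951 CPM in tolerized kidneys. Grafts did not overlap naive kidneys for any member, but the rejecting and tolerized kidneys overlapped for Iigp1. All 10 were called higher in rejecting and in tolerized than in naive kidneys (edgeR), where 7.61% and 6.28% of the 8602 genes tested were called higher. The medians over the members were 3.60 and 2.57 on the log2 scale. For members with more than 3 naive UMIs, the fold over naive endothelial cells ranged from 7.74 for Gbp3 to 42.5 for Gbp4 in rejecting kidneys and from 3.59 for Gbp2 to 22.7 for Gbp4 in tolerized kidneys. No naive endothelial cell had a UMI of Gbp6, whose level was at least 16.6-fold higher in rejecting and at least 5.86-fold higher in tolerized kidneys, against a floor of 3 counts over the naive group. With either naive kidney left out, which leaves a single one, part of the members lost their call in the tolerized comparison. Without the second naive kidney, most other genes lost theirs too.

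In myeloid cells, Gbp5 stood at 3.98 and 6.77 CPM in naive, 169 and 137 CPM in rejecting, and 77.8 and 78.8 CPM in tolerized kidneys, or a log2 fold change of 4.74 ± 0.38 and 3.77 ± 0.41. Its naive levels rested on 1 and 3 UMIs, so these folds are uncertain. Gbp2 stood at 15.9 and 74.5 CPM in naive, 615 and 597 CPM in rejecting, and 412 and 385 CPM in tolerized kidneys. For Gbp2, the naive kidneys lay further from each other than the kidneys of either graft group did, and every graft was above both of them. All 10 members were called higher in rejecting than naive myeloid cells, and 8 in tolerized kidneys, where 7.92% and 4.82% of the 12078 genes tested were called higher. Gbp6 and Tgtp2 did not pass in tolerized kidneys, and they had 2 and 3 naive UMIs. Their ratios to the naive level were 4.0 (95% counting interval 1.1 to 33.0) for Gbp6 and 4.8 (1.6 to 23.5) for Tgtp2. The members' medians were 3.70 and 2.78 on the log2 scale, beside 0.17 over all genes in both comparisons. Different clusters held most macrophages of the groups, since 1 cluster held 36 and 97 naive macrophages, all but 1 and 4 of those kidneys, but 278 of 1522 and 148 of 1570 in rejecting and 151 of 1162 and 80 of 381 in tolerized kidneys. Within that cluster, Gbp4 stood at 11.3 and 13.8 CPM in naive, on 1 and 4 UMIs, at 272 and 177 CPM in rejecting, and at 159 and 147 CPM in tolerized kidneys. With macrophages alone, 9 members were called in rejecting and 7 in tolerized over naive kidneys. The count of all genes called in that fit is not given, but no alternative myeloid fit called more than 2698 and 1847 genes in either direction.

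In lymphoid cells, 6 of the 10 members were called higher in rejecting than naive kidneys, which are Gbp3, Gbp4, Gbp5, Gbp7, Igtp, and Iigp1, and 7.03% of the 12072 genes tested were. In tolerized kidneys, 5 members were called higher, the same but for Gbp3, beside 2.84% of genes. The make-up of the class differed, with 34 T cells and 29 B cells among 70 naive cells of the first kidney and 41 and 78 among 132 of the second, against 3416 T cells of 3954 and 2576 of 3209 in rejecting kidneys. With T cells alone, 2 members were called higher in each comparison. The count of all genes called there is not given, but no alternative lymphoid fit called more than 2273 and 1208 genes in either direction. Gbp4 stood at 6.24 and 4.13 CPM in naive, 92.9 and 75.7 CPM in rejecting, and 76.2 and 68.1 CPM in tolerized lymphoid cells. Its naive levels rested on 1 UMI in each kidney. The ratio of Gbp4 to the naive level was 18.1 (counting interval 5.0 to 149.6) in rejecting and 14.6 (4.0 to 120.4) in tolerized kidneys. Gbp3 and Iigp1 each had 3 UMIs over both naive kidneys, so the folds of Gbp3, Gbp4, and Iigp1 are uncertain. Gbp7 stood at 37.4 and 16.5 CPM in naive, 108 and 120 CPM in rejecting, and 135 and 88.8 CPM in tolerized kidneys, or a log2 fold change of 2.18 ± 0.44 in rejecting kidneys. Grafts were above both naive kidneys for each member here too. The naive sums were shallow, and Gbp5, Gbp6, and Tgtp2 had no naive UMI, so that with the 3-count floor their levels were at least 3.16-fold, 2.75-fold, and 1.81-fold higher in rejecting kidneys. With such genes at these bounds, the members' median log2 fold change was 1.67 in rejecting and 1.497 in tolerized kidneys, beside 0.26 and 0.23 over all genes. Without the second naive kidney, the members lost their calls in both comparisons, and nearly all other genes lost theirs too. In tolerized kidneys, the members also lost them without the first. Such fits hold a single naive kidney, and the loss without the second was not particular to the members.

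The comparison of rejecting with tolerized kidneys was between grafts of 1 strain, age range, and day, while the donor sex of each graft is not given. In tubular, endothelial, and myeloid cells, each of the 10 GTPases was higher on average in rejecting kidneys, but none passed the FDR. Without the second rejecting kidney the direction turned for Irgm1, to -0.17, -0.53, and -0.12 on the log2 scale in these classes, and for Iigp1 in endothelial cells, to -0.14. In tubular cells, the log2 fold change ranged from 0.36 for Iigp1 to 1.30 for Gbp5, with a median of 0.56 beside -0.01 over all genes. The edgeR test called 0 of the 13907 genes higher (0%) at an FDR of 0.05, and 1376 genes had an unadjusted p under 0.05 in either direction. Of the members, 6 had an unadjusted p under 0.05 in the higher direction, as did 6.37% of all genes. The rejecting kidneys were both above the tolerized kidneys for 8 members, as for 17.5% of all genes. DESeq2 called 2 members, Gbp5 and Gbp2, and no alternative fit called more than 748 genes in all.

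Gbp5 stood at 14.4 and 16.4 CPM in rejecting and 5.19 and 7.32 CPM in tolerized tubular cells, a log2 fold change of 1.30 ± 0.33 (edgeR, FDR = 0.247). Gbp2 stood at 208 and 196 CPM against 138 and 120 CPM, with a log2 fold change of 0.64 ± 0.17 (edgeR, FDR = 0.247). For both genes the groups did not overlap, and the gap between groups was wider than that within them. Gbp6 was at 58.7 and 50.2 CPM against 28.0 and 36.9 CPM, and Tgtp2 at 59.1 and 66.0 CPM against 36.5 and 44.8 CPM. Iigp1, at 1270 and 1744 CPM against 1179 and 1175 CPM, did not overlap either, but the rejecting kidneys lay further from each other than the nearer of them lay from the tolerized kidneys. Gbp3 and Irgm1 overlapped between the groups, and the second rejecting kidney held the highest value of both.

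Markers of leukocytes moved in the same direction in these tubular cells. All 12 genes of a leukocyte marker list were higher in both rejecting than in both tolerized kidneys, with a median log2 fold change of 2.39 (range 1.79 to 3.23), and all 12 had an unadjusted p under 0.05 while none passed the FDR. Gbp5 in tubular cells of grafts stood at 9.53% to 18.8% of its level in leukocytes. In tubular cells without any UMI of these markers, the members' log2 fold changes ranged from 0.20 for Iigp1 to 0.955 for Gbp5, and none passed the FDR. That left 90 of 3936 and 663 of 1772 cells in rejecting and 1764 of 4517 and 1834 of 3858 in tolerized kidneys.

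**Figure D2:**
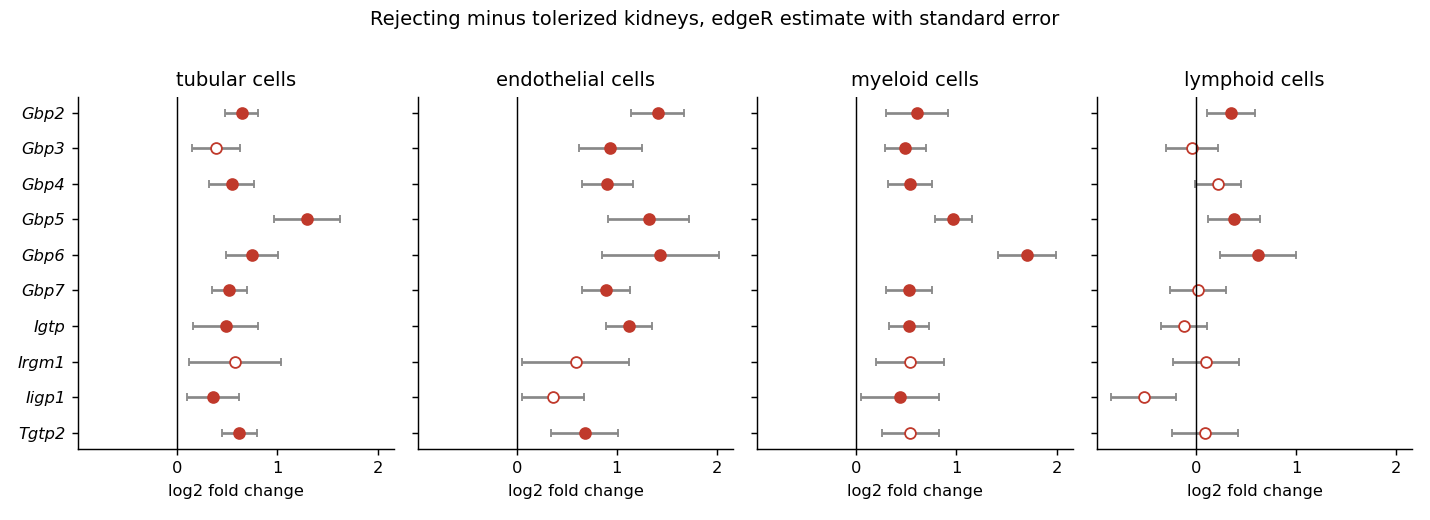
Log2 fold change of each GTPase in rejecting over tolerized kidneys by class, with SE as bars and 2 kidneys per group, where filled points mark groups that do not overlap and open points groups that do. The points of tubular, endothelial, and myeloid cells all lie above 0, those of lymphoid cells lie between -0.52 and 0.62, and no gene passed the FDR.

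In endothelial cells, the median log2 fold change of rejecting over tolerized kidneys was 0.92 over the members, beside -0.01 over all genes. Gbp2 stood at 455 and 487 CPM in rejecting and 141 and 214 CPM in tolerized endothelial cells, a log2 fold change of 1.41 ± 0.27 (edgeR, FDR = 0.304). Igtp stood at 514 and 548 CPM against 226 and 262 CPM, a log2 fold change of 1.12 ± 0.23 (edgeR, FDR = 0.335). Neither gene overlapped between the groups. Gbp4, Gbp7, Gbp5, and Gbp3 differed by 0.91 ± 0.25, 0.89 ± 0.24, 1.32 ± 0.41, and 0.93 ± 0.31. The edgeR test called 0 of 8602 genes (0%), with 578 at an unadjusted p under 0.05. DESeq2 called 4 members, Gbp2, Gbp4, Gbp7, and Igtp, and no alternative fit called more than 165 genes in all. Of the members, 7 had an unadjusted p under 0.05 and 8 did not overlap, beside 3.34% and 16.9% of all genes in the higher direction. The lowest of these differences was that of Iigp1, at 0.36 ± 0.31. Of the 9 leukocyte markers tested in endothelial cells, all 9 lay above 0, with a median of 1.84 and 6 at an unadjusted p under 0.05, and their part in the members' differences was not tested.

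In myeloid cells, Gbp6 had the largest difference of the members, with 48.1 and 33.1 CPM in rejecting and 10.2 and 15.3 CPM in tolerized kidneys, or a log2 fold change of 1.70 ± 0.29 (edgeR, FDR = 0.279). Gbp5 followed, at 169 and 137 CPM against 77.8 and 78.8 CPM, a log2 fold change of 0.97 ± 0.19 (edgeR, FDR = 0.316). Both genes were higher in each rejecting kidney than in each tolerized kidney. The other 8 members lay between 0.43 and 0.60, and Irgm1 and Tgtp2 overlapped. The edgeR test called 0 genes higher (0%) and 1 of 12078 lower, with 813 at an unadjusted p under 0.05 in either direction. DESeq2 called Gbp5 and Gbp6, and no alternative fit called more than 350 genes in all. Of the members, 6 had an unadjusted p under 0.05 and 8 did not overlap, beside 2.4% and 17.2% of all genes in the higher direction. Gbp6 was called by edgeR without the second rejecting kidney and without the second tolerized kidney.

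In lymphoid cells, the members' median log2 fold change of rejecting over tolerized kidneys was 0.09, with 7 of 10 above 0, beside 0.01 over all genes. Iigp1 had the lowest value, with 98.8 and 57.5 CPM in rejecting and 79.4 and 145 CPM in tolerized lymphoid cells, a log2 fold change of -0.52 ± 0.33 (edgeR, FDR = 0.827). Gbp6 had the highest value, with 19.99 and 18.2 CPM against 7.53 and 17.6 CPM, a log2 fold change of 0.62 ± 0.38 (edgeR, FDR = 0.822). Iigp1 overlapped between the groups, and for Gbp6 the second tolerized kidney lay next to the rejecting kidneys. The edgeR test called 0 of 12072 genes (0%), with 846 at an unadjusted p under 0.05 in either direction and 4.05% of genes at such a p in the higher direction, and neither edgeR nor DESeq2 called a member. No member had an unadjusted p under 0.05, and 3 members (Gbp2, Gbp5, and Gbp6) did not overlap, beside 21.4% of all genes.

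Whether the difference between rejecting and tolerized kidneys itself differed between classes was tested as an interaction with the kidney as a block, over the 4 grafts. No member passed in endothelial, myeloid, or lymphoid against tubular cells, and 0 genes were called (0%) in each of the 3 interactions, with 623, 1048, and 1086 genes at an unadjusted p under 0.05. Gbp6 had the smallest p in the myeloid interaction, where its difference was 0.90 ± 0.21 above that of tubular cells on the log2 scale (edgeR, FDR = 0.434). Gbp5 had the smallest in the lymphoid interaction, at -0.90 ± 0.31 (edgeR, FDR = 0.412). Gbp2 had the smallest in the endothelial interaction, at 0.65 ± 0.35, where the median over all genes was -0.18.

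Within the classes, the level of a GTPase differed by cell type. Levels by cell type are given as CPM without TMM scaling, for types with at least 20 cells in a kidney. In naive kidneys, endothelium held the highest mean level of Gbp2, Gbp4, Gbp5, Gbp7, Iigp1, and Tgtp2. It did not overlap with any other type for Gbp4, Gbp7, and Iigp1, and overlapped with at least 1 other type for Gbp2, Gbp5, and Tgtp2. Iigp1 stood at 113 and 102 CPM in naive endothelium and at 1.57 and 3.71 CPM in naive proximal tubule, which did not overlap. Igtp was highest in naive T cells, at 86.6 and 72.1 CPM, above endothelium at 50.4 and 39.2 CPM. These T cell levels rested on 6 and 7 UMIs, so that the place of T cells above endothelium is uncertain. Naive levels in macrophages were less even, with 10.6 and 83.3 CPM of Gbp2, the first of them on 1 UMI.

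In rejecting kidneys, Gbp4 kept a clear order of cell types, with 1422 and 1877 CPM in endothelium, 613 and 615 CPM in collecting duct, and 205 and 225 CPM in distal convoluted tubule. These 3 did not overlap with each other. In tolerized kidneys, Gbp4 stood at 777 and 952 CPM in endothelium and 353 and 271 CPM in collecting duct, and every other cell type was below both. Gbp7 was likewise highest in endothelium, at 755 and 831 CPM in rejecting and 434 and 411 CPM in tolerized kidneys. Gbp3 stood at 242 and 386 CPM in rejecting endothelium and overlapped with rejecting monocytes, at 269 and 307 CPM.

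Other members led in other cell types. In rejecting kidneys, Gbp2 stood at 982 and 1154 CPM in monocytes and 554 and 542 CPM in macrophages, and Gbp5 at 290 and 297 CPM in monocytes, 203 and 149 CPM in endothelium, and 153 and 120 CPM in macrophages. Monocytes did not overlap with any other type for either gene in rejecting kidneys. In tolerized kidneys, Gbp2 in monocytes was 575 and 355 CPM and overlapped with macrophages at 354 and 368 CPM. Gbp6 was highest in proximal tubule, at 78.9 and 79.0 CPM in rejecting and 35.7 and 49.7 CPM in tolerized kidneys, above macrophages at 53.5 and 38.0 CPM in rejecting kidneys. Igtp was highest in collecting duct in rejecting kidneys, at 683 and 676 CPM, followed by proximal tubule at 604 and 568 CPM.

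Iigp1 had a broad pattern in the epithelium and endothelium of grafts. In rejecting kidneys, it stood at 1457 and 2093 CPM in proximal tubule, 1179 and 1761 CPM in loop of Henle, 1310 and 1819 CPM in distal convoluted tubule, 1158 and 2043 CPM in collecting duct, and 1006 and 1852 CPM in endothelium. These 5 types overlapped, and the second rejecting kidney was the higher one in each. Macrophages, at 368 and 497 CPM, monocytes, at 263 and 414 CPM, and T cells, at 96.9 and 59.2 CPM, were below all of them. Irgm1 stood at 172 and 430 CPM in rejecting and 145 and 215 CPM in tolerized proximal tubule, with the second kidney the higher one, while in tolerized B cells it stood at 36.8 and 30.7 CPM, with the first the higher one.

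**Figure D3:**
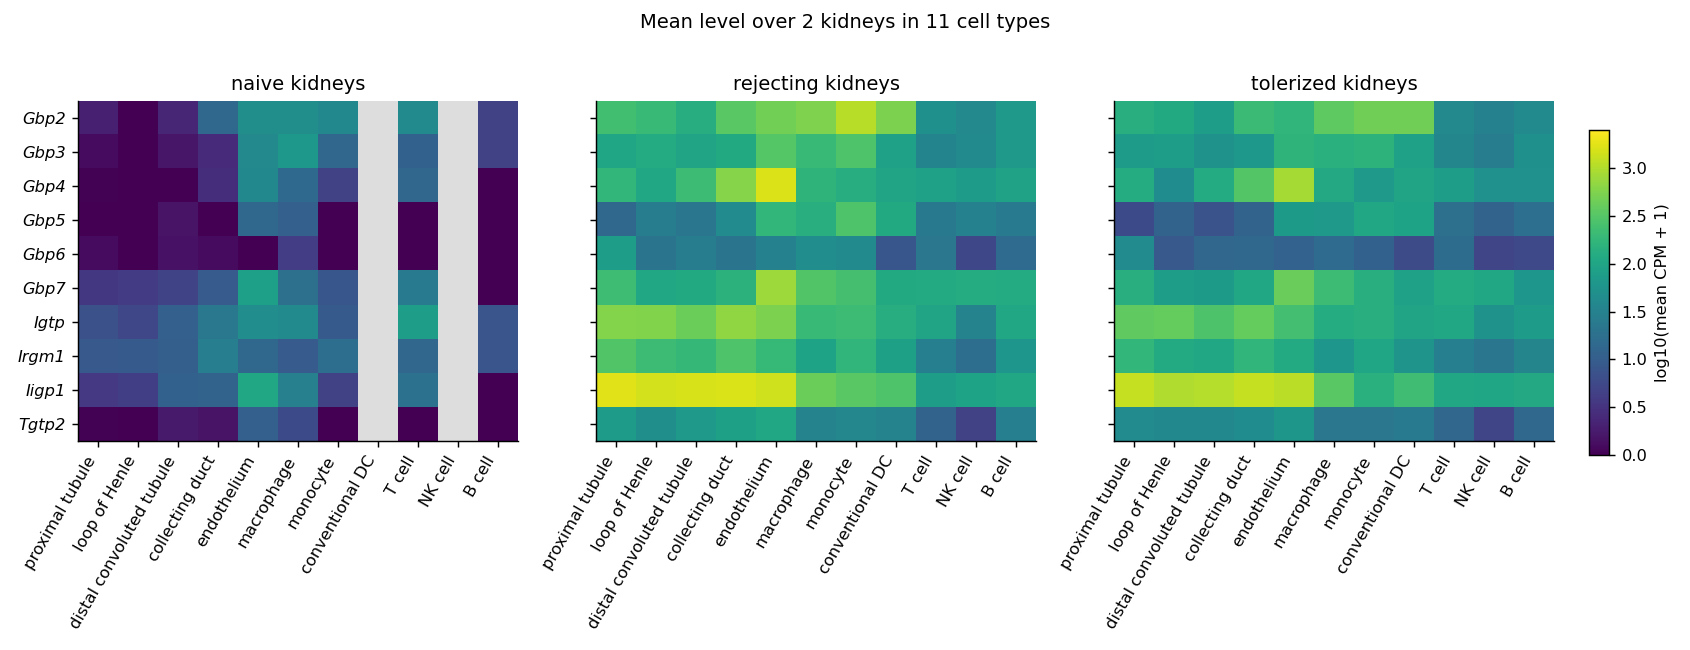
Mean level of each GTPase per cell type and group, as log10 of mean CPM plus 1, from dark blue (low) to yellow (high), where grey marks a type with under 20 cells in a kidney of the group. The naive panel is dark in the tubule, and in grafts Gbp4 is brightest in endothelium while Iigp1 is bright in all tubule segments and endothelium.

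Most proximal tubule cells of naive kidneys and of grafts fell in different clusters, so the members were also read within clusters that held cells of all 6 kidneys. Of the proximal tubule clusters, 2 held 7 or more cells of each kidney. In the larger of them, Iigp1 had 1 UMI in 62 and 0 in 92 naive cells, 269 in 31 and 199 in 19 rejecting cells, and 410 in 70 and 125 in 7 tolerized cells. In the other, whose leading genes are cell cycle genes, it had 0 UMIs in 18 and 9 in 46 naive cells, 504 in 58 and 181 in 37 rejecting cells, and 204 in 23 and 366 in 22 tolerized cells. In the loop of Henle cluster, Iigp1 stood at 3.89 and 2.69 CPM in naive, 1179 and 1761 CPM in rejecting, and 1128 and 855 CPM in tolerized kidneys. In the main cluster of collecting duct principal cells, it stood at 29.0 and 4.29 CPM in naive, 1789 and 2534 CPM in rejecting, and 1442 and 1696 CPM in tolerized kidneys. All 4 clusters thus showed naive and graft cells far apart. Gbp4 in the endothelial cluster that all 6 kidneys shared stood at 46.4 and 47.8 CPM in naive, 1422 and 1877 CPM in rejecting, and 777 and 957 CPM in tolerized kidneys. A shallow proximal tubule cluster came mostly from the first rejecting kidney, with 1587 of its 1807 cells, and a T cell cluster did likewise, with 1505 of 1667. Without both clusters, 10 members were still called higher in tubular cells in each comparison with naive kidneys, and 0 in rejecting over tolerized kidneys. No alternative tubular fit called more than 5757 and 4389 genes over naive kidneys in either direction.

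The share of cells with a UMI of any of the 10 GTPases followed the same order of groups. Each cell was thinned to 500 UMIs, since depth differed between kidneys, and 2 shallower cells were left out. Naive tubular cells had a share of 0.763% (exact 95% binomial interval 0.561 to 1.01) and 1.16% (0.879 to 1.49). Rejecting tubular cells had 64.6% (63.1 to 66.1) and 75.1% (73.0 to 77.1), and tolerized tubular cells had 59.1% (57.6 to 60.5) and 53.6% (52.0 to 55.1). The groups were apart, and the gap between naive kidneys and grafts was by far the widest. Without thinning, the naive shares were 5.10% and 8.28% at median depths of 3755 and 3650 UMIs. The rejecting shares were then 90.5% and 96.6% at 2785 and 4453.5 UMIs, and the tolerized shares 95.8% and 95.3% at 7008 and 11077 UMIs. The unthinned shares of the grafts thus overlapped, at depths that were higher in tolerized kidneys. Intervals cover counting error only.

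Endothelial cells had the highest thinned shares of the classes, at 14.7% and 13.9% (naive), 85.1% and 85.4% (rejecting), and 68.9% and 64.3% (tolerized). Myeloid cells had shares of 5.81% and 9.87% (naive), 57.7% and 57.0% (rejecting), and 44.1% and 43.6% (tolerized). In both classes the 3 groups did not overlap. Lymphoid cells had shares of 8.57% and 3.03% (naive), 28.0% and 23.5% (rejecting), and 22.8% and 26.6% (tolerized), and the grafts overlapped. Unthinned, the naive shares of endothelial, myeloid, and lymphoid cells were 18.2% to 51.7% and those of grafts 59.1% to 97.9%, at median depths of 1843.5 to 2944 and 1360.5 to 10579 UMIs.

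Cells with UMIs of several GTPases were also counted. Whether they were more frequent than the level of each member alone would give was not tested. At 500 UMIs, 3 or more different members were seen in 24.6% and 37.5% of rejecting endothelial cells, 15.5% and 8.04% of tolerized endothelial cells, and 1 of the naive endothelial cells. Such tubular cells made up 7.90% and 14.4% in rejecting against 5.85% and 6.195% in tolerized kidneys, and in myeloid cells 8.40% and 10.0% against 4.03% and 3.51%. In all 3 classes the rejecting kidneys were both above the tolerized kidneys. In lymphoid cells all grafts were between 0.528% and 0.784%. Without thinning, these shares of grafts were 59.1% to 76.9% in tubular, 67.9% to 93.75% in endothelial, 71.3% to 82.3% in myeloid, and 10.3% to 31.8% in lymphoid cells.

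**Figure D4:**
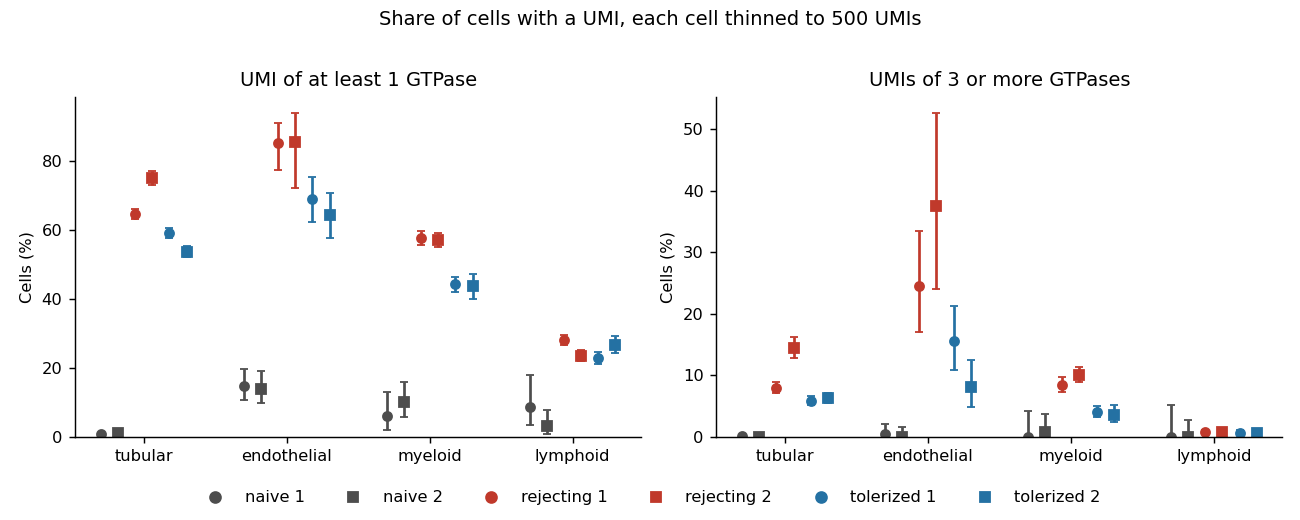
Share of cells with a UMI of at least 1 of the 10 GTPases, and of at least 3 of them, in percent per kidney and class, after thinning each cell to 500 UMIs, with exact 95% binomial intervals that cover counting error only. For at least 1 GTPase, tubular cells go from 0.763% and 1.16% in naive kidneys to 53.6% to 75.1% in grafts, while lymphoid cells of grafts stay between 22.8% and 28.0%.

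RNA of leukocytes was present in tubular cells of grafts. A list of 12 leukocyte markers summed to 7.22 and 18.6 CPM in naive tubular cells, 965 and 222 CPM in rejecting, and 131 and 63.6 CPM in tolerized kidneys, which was 0.309% to 3.442% of their level in the leukocytes of the same graft. All 12 markers were called higher in rejecting than naive tubular cells and 6 in tolerized kidneys, and none of them was at 0 in a graft. The 10 GTPases together stood at 2191 to 3820 CPM in tubular cells of grafts, which was 192% to 237% of their level in leukocytes. Iigp1, at 518% to 628%, and Igtp, at 322% to 377%, were well above it, while Gbp2 (50.9% to 59.0%), Gbp3 (60.9% to 84.0%), and Gbp5 were below it in every graft, and Gbp7 lay at 60.5% to 109%. When tubular cells with any UMI of these markers were left out, 10 members were called in both comparisons with naive kidneys, on the 90 to 1834 cells per graft given above. The count of all genes called there is not given, but no alternative tubular fit called more than 5757 and 4389 genes in either direction. In endothelial cells of grafts, the leukocyte markers stood at 0.674% to 3.215% and the members at 283% to 401% of the level in leukocytes. In the other direction, 10 tubular markers in lymphoid cells stood at 1.606% to 6.871% of their tubular level in grafts, and Iigp1 at 2.99% to 11.4%. Among the grafts, the second tolerized kidney was highest and the second rejecting kidney lowest for both. The part of such RNA in the lymphoid level of Iigp1 was not tested. In naive kidneys, the tubular markers stood at 20.5% and 26.9% of their tubular level in lymphoid cells. They stood at 16.4% and 21.0% in naive myeloid and at 12.4% and 21.2% in naive endothelial cells. The part of this RNA in the comparisons with naive kidneys was not tested.

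The interferon-gamma ligand, its receptor, and its signalling were read from a list of 12 genes. Which signal induced the members in these kidneys was not tested. Ifng, the ligand, was found mainly in T cells, at 43.3 and 72.1 CPM in naive, 381 and 242 CPM in rejecting, and 277 and 215 CPM in tolerized kidneys, and in NK cells of grafts, at 191 to 499 CPM. Every other type was at or below 13.8 CPM. The naive T cell levels rested on 34 and 41 cells with 69261 and 97088 UMIs. In lymphoid cells, Ifng rose by 3.26 ± 0.45 on the log2 scale in rejecting over naive kidneys (edgeR, FDR = 0.00181). It rose by 2.89 ± 0.45 in tolerized over naive kidneys, and the grafts differed by 0.37 ± 0.30 (edgeR, FDR = 0.882). The share of T cells in this class was lower in naive kidneys, as given above, and its part in the rise was not tested. Ifngr1, the ligand-binding chain, stood at 18.3 and 18.8 CPM in naive, 38.2 and 34.95 CPM in rejecting, and 23.4 and 18.0 CPM in tolerized tubular cells. It rose in rejecting kidneys (0.98 ± 0.18), and it overlapped between tolerized and naive kidneys. Ifngr2, the signalling chain, stood at 10.3 and 11.4 CPM in naive, 13.7 and 24.01 CPM in rejecting, and 16.1 and 16.0 CPM in tolerized tubular cells, and it was called in rejecting kidneys.

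Irf1, an induced transcription factor, stood at 10.2 and 13.8 CPM in naive, 140 and 118 CPM in rejecting, and 68.2 and 96.4 CPM in tolerized tubular cells. The 3 groups did not overlap. Its log2 fold change was 3.44 ± 0.25 in rejecting and 2.78 ± 0.25 in tolerized over naive kidneys, and the difference between grafts was 0.65 ± 0.23 (edgeR, FDR = 0.347). In endothelial cells, Irf1 went from 92.3 and 54.9 CPM in naive to 313 and 263 CPM in rejecting and 263 and 258 CPM in tolerized kidneys. Of the 12 genes of the list, 10, 5, 5, and 6 were called higher in rejecting than naive tubular, endothelial, myeloid, and lymphoid cells. Of all genes tested, 18.6%, 7.61%, 7.92%, and 7.03% were. Ifngr2 was called lower in lymphoid cells. In tolerized kidneys, 8, 5, 4, and 4 were called higher, beside 12.8%, 6.28%, 4.82%, and 2.84% of all genes. Leukocyte markers in tubular cells moved in the same order of groups, and their part in the tubular counts was not tested. The part of the make-up of the lymphoid class in its calls was not tested either.

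**Figure D5:**
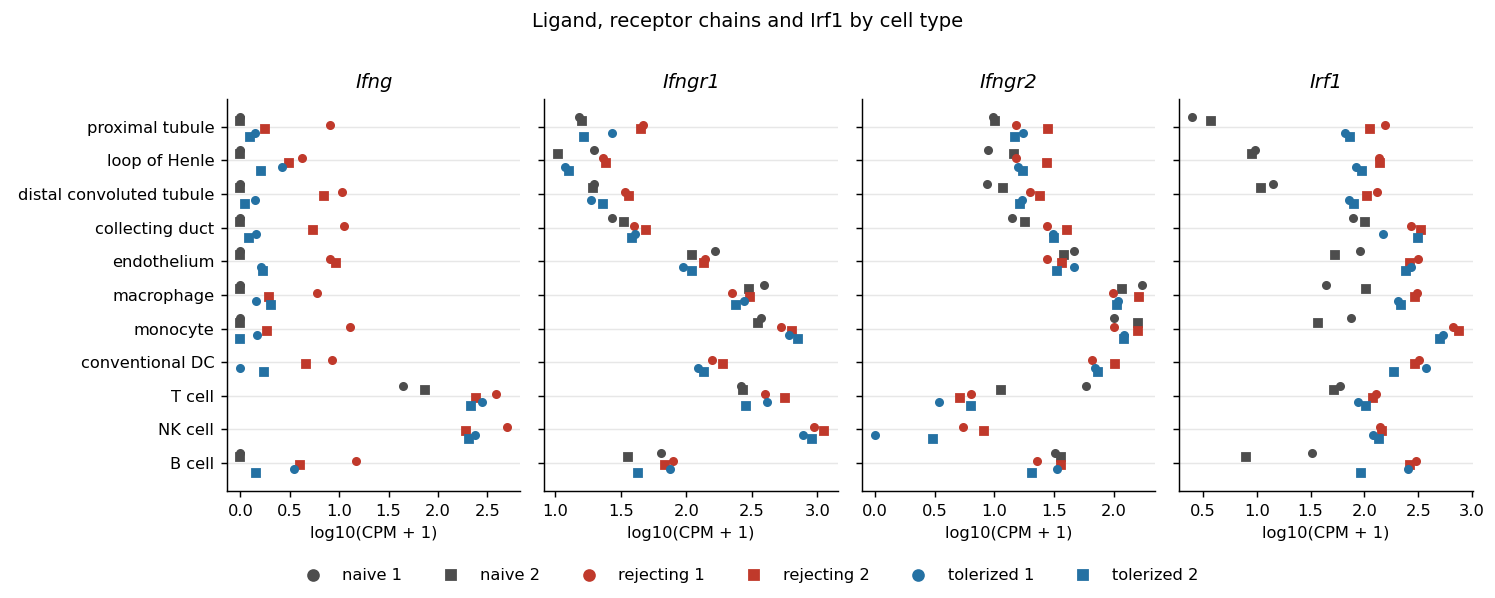
Levels of Ifng, Ifngr1, Ifngr2, and Irf1 per cell type and kidney, as log10 of CPM plus 1 without TMM scaling, for types with at least 20 cells in a kidney. Ifng is seen in T cells, at 43.3 to 381 CPM, and in NK cells of grafts, while Irf1 is above the naive level in every tubule segment of grafts.

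Other GTPases of the same families moved with the members. Of 12 further interferon-inducible GTPases, 9 were tested in tubular cells and all 9 were called higher in rejecting and in tolerized over naive kidneys, with medians of 7.39 and 6.72 on the log2 scale. Gbp2b, the mouse gene formerly called Gbp1, had no UMI in naive tubular cells and stood at 400 and 410 CPM in rejecting and 304 and 268 CPM in tolerized kidneys. Gbp10 also had none and stood at 78.8 and 110 CPM in rejecting and 50.4 and 71.0 CPM in tolerized kidneys. In rejecting endothelial, myeloid, and lymphoid cells, 8 of 9, 7 of 10, and 2 of 10 were called higher than in naive kidneys, and in tolerized kidneys 8, 7, and 1. None was called between rejecting and tolerized kidneys by edgeR, where 9 of the 9 in tubular cells lay above 0 with a median of 0.58. Of the 5 with a RefSeq promoter, 4 held ISRE-like and 3 held GAS-like letters.

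Of 15 other interferon-gamma targets, 12 of the 13 tested rose in rejecting and 10 in tolerized over naive tubular cells. Psmb8, a subunit of the immunoproteasome, stood at 4.08 and 7.47 CPM in naive, 876 and 843 CPM in rejecting, and 631 and 570 CPM in tolerized kidneys. Ciita, the master regulator of MHC class II genes, stood at 0.324 and 0.322 CPM, 75.9 and 50.02 CPM, and 50.4 and 36.1 CPM. Cxcl9, a chemokine for T cells, went from 3.98 and 97.02 CPM in naive to 3624 and 2666 CPM in rejecting and 2306 and 2385 CPM in tolerized myeloid cells. In endothelial, myeloid, and lymphoid cells, 10, 11, and 5 of these targets rose in rejecting kidneys, and the counts for tolerized kidneys were 10, 10, and 4. The shares of all genes called higher, for this list and the other GTPases, are those given above. The part of leukocyte RNA in the tubular values of these targets was not tested.

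The genes through which the GTPases are known to act were read from a pair of lists. Of 6 autophagy conjugation genes, which are needed to load immunity-related GTPases on vacuoles, 1 was called higher in rejecting tubular cells. This was Atg12, from 27.5 and 25.4 CPM in naive to 36.2 and 38.0 CPM. A count of 1 of 6 is near the share of all genes called higher there, 18.6%. None was called in tolerized tubular cells, Atg5 was called higher in myeloid cells of both kinds of graft, and none was called in endothelial or lymphoid cells. Of 6 caspase-11 and inflammasome genes, 4 were tested in tubular cells and 3 of these rose in both kinds of graft, with a median over the 4 of 4.97 in rejecting and 3.54 in tolerized kidneys on the log2 scale. Casp4, which encodes caspase-11, went from 0.121 and 0.054 CPM in naive to 2.64 and 5.16 CPM in rejecting and 1.63 and 1.20 CPM in tolerized tubular cells. The leukocyte markers in these cells moved in the same order of groups, and their part in it was not tested. In rejecting myeloid cells, Casp4, Gsdmd, and Pycard rose, and Casp4 stood at 31.8 and 31.6 CPM in naive against 61.8 and 88.5 CPM in rejecting kidneys. In tolerized myeloid cells 1 of the 6 was called, in lymphoid cells 2 of 5 tested in rejecting and 0 in tolerized kidneys, and in endothelial cells 0 of 4. Of all genes, 18.6%, 7.61%, 7.92%, and 7.03% were called higher in rejecting tubular, endothelial, myeloid, and lymphoid cells. In tolerized kidneys, these shares were 12.8%, 6.28%, 4.82%, and 2.84%. Between rejecting and tolerized kidneys, edgeR called 0 genes of these lists in each of the 4 classes.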

How the data were processed

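The authors aligned reads to mm10 with Cell Ranger and deposited raw UMI counts per gene and barcode for each of the 6 kidneys, without normalization. Graft headers name version 3.0.1 and 31053 genes, and naive headers name no version and 28692 genes. Gbp6 was matched by identifier, because the naive list gives that symbol to a second gene. The members and gene lists were chosen with earlier results of these data known. Barcodes under 500 UMIs or 250 genes, or above 50% mitochondrial UMIs, were dropped. Scrublet's own calls were few (0 to 282 per kidney), so the highest scores were removed, at 0.8% per 1000 barcodes. Leiden clustering (scanpy 1.11.5, igraph 0.11.9, with 2500 genes, 40 components, 20 neighbors, resolution 1.5) gave 42 clusters, of which 41 were named by at least 3 markers. Sums per kidney and class were filtered with filterByExpr, TMM-scaled, and tested with edgeR 4.0.16 (R 4.3.3) quasi-likelihood on all 6 kidneys, with Benjamini-Hochberg adjustment over all genes tested. Each SE is the absolute log2 fold change divided by the square root of the quasi-likelihood F statistic. It is approximate, most of all where naive counts were near 0. DESeq2 1.42.0 was an alternative. Genes named from the lists are a part of those past the FDR without overlap, plus Ifng, Ifngr1, Ifngr2, and Irf1. They are not always the largest changes of a list. Values of 1 measured gene are left out. The test was checked on simulated data, where it recovered most large changes and few small ones, with more false calls than the FDR names.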

Additional observations from a re-analysis of the deposited data

How the results depend on the processing

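Of 1822 alternative values of 115 gene results, 1711 kept their direction and side of the threshold, 63 lost a call, 44 gained one, and 4 turned. In tubular cells, all 10 members were called over naive kidneys in both comparisons under each of the 17 alternatives run. In rejecting over tolerized kidneys, where edgeR called 0 members, DESeq2 called 2 in tubular, 4 in endothelial, and 2 in myeloid cells. Without a filter on low counts, edgeR called 2, 3, and 2 members, among 748, 165, and 350 genes called in all. The main fit called 0, 0, and 1 genes in all. No other alternative, DESeq2 among them, called more genes than the fit without a filter. The cause was not tested. With each kidney left out in turn, 0 to 1 members were called in myeloid cells in this comparison. In the same way, 4 to 10 members were called in tolerized over naive endothelial cells (5 without the first and 4 without the second naive kidney), 0 to 8 in rejecting over naive lymphoid cells, and 0 to 6 in tolerized over naive lymphoid cells. The lymphoid counts were 3 and 0 without either naive kidney and 3 without the second rejecting kidney for rejecting kidneys, and 0, 0, and 2 for tolerized kidneys. With doublets kept, the lymphoid counts were 10 and 8, and with T cells alone 2 and 2, where fewer cells were tested. Without the second rejecting kidney, the rejecting over tolerized log2 fold change of Irgm1 turned to -0.17 in tubular, -0.53 in endothelial, and -0.12 in myeloid cells, and that of Iigp1 to -0.14 in endothelial cells. The highest values with another kidney left out were 1.06, 1.28, 0.99, and 0.73. None of these 4 differences passed the FDR in any of these fits.

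The study's kidneys came from 2 experiments, but the labels do not say which kidney belonged to which, so whether the replicate numbers mark them is unknown and the kidneys were not taken as paired. Deviations from the group means correlated between rejecting and tolerized kidneys at 0.31 in tubular cells but at -0.092 to 0.005 in the other classes. With a replicate block, 10 members were called over naive kidneys in tubular and endothelial cells, 10 and 9 in myeloid cells, 8 and 5 in lymphoid cells, and 0 in each comparison of rejecting with tolerized kidneys. Gbp6 and Tgtp2 in rejecting lymphoid cells and Tgtp2 in tolerized myeloid cells gained their call under the block.

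Counts over all genes also depended on the processing, and those over naive kidneys were lowest in each class without the second naive kidney. Between the alternatives they ranged from 2027 to 5757 in rejecting and 957 to 4389 in tolerized over naive tubular cells, 282 to 2031 and 143 to 1833 in endothelial cells, 373 to 2698 and 65 to 1847 in myeloid cells, and 8 to 2273 and 1 to 1208 in lymphoid cells. In rejecting over tolerized kidneys they ranged from 0 to 748, 165, 350, and 230 in these classes, and in the interactions from 0 to 198, 73, and 448. The naive lymphoid sums held 413134 UMIs in both kidneys together, so that 3 counts stand for 7.26 CPM there.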

Other observations

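The genes whose pattern was most like that of the 10 GTPases were named by Pearson's r of log2 CPM with the members' mean standardised level, over 24 points (4 classes in 6 kidneys) and 8706 genes, as a description. The points of a kidney share a library, and naive kidneys differ from grafts in the ways given above. Each member itself had an r of 0.873 to 0.957. Parp9 stood first with an r of 0.938, followed by Gbp2b (0.936), F830016B08Rik (0.929), Gm4951 (0.918), Parp14 (0.904), Kctd17 (0.903), H2-T23 (0.901), Irf1 (0.899), Herc6 (0.89), and Cd274 (0.88). Gbp2b, F830016B08Rik, and Gm4951 are themselves interferon-inducible GTPases of the list given above. Parp9 and Parp14 encode members of the ADP-ribosyltransferase family, H2-T23 a nonclassical MHC class I molecule, and Cd274 the checkpoint ligand PD-L1.

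In the grafts, Irgm1 was higher in the second than in the first kidney of each group in all 4 classes. In tubular cells, its TMM-scaled level was 6.79 and 15.5 CPM in naive, 144 and 336 CPM in rejecting, and 128 and 194 CPM in tolerized kidneys. In endothelial cells it was 84.6 and 299 CPM in rejecting and 76.1 and 170 CPM in tolerized kidneys, and in myeloid cells 63.6 and 137 CPM and 55.8 and 83.5 CPM. In lymphoid cells it was 23.9 and 39.4 CPM and 20.5 and 39.1 CPM. Naive endothelial cells stood at 16.8 and 9.34 CPM, on 12 and 8 UMIs, and naive myeloid cells at 15.9 and 9.03 CPM, on 4 and 4 UMIs. Such counts are too few to give an order of the naive kidneys. Igtp stood at 534 and 481 CPM in rejecting and 377 and 348 CPM in tolerized tubular cells. These differences between replicates were not tested.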
